A study of Mus musculus with 9 samples.

Results

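The B lineage genes described here are Cd79a, Cd79b, Ebf1, Pax5, Vpreb1, Vpreb3, Igll1, Ighm and Blnk, 9 of the 39179 genes listed in each count table. They were chosen by name and found through their Ensembl identifiers. RNA came from capillaries and the cells around them, cut by laser microdissection (LMD) from the ossification front (OF), the zone under the growth plate where bone forms, of the femur. All mice were Tg(TIE2GFP)287Sato/J on a C57BL/6 origin, in which the Tie2 promoter drives GFP in endothelial cells so that vessels can be seen for cutting. Juvenile mice were 4 weeks old (n = 5) and adult mice were 12 weeks old (n = 4), with no other treatment or allele named, and each library came from a different mouse. The dissected piece was bulk tissue, so fewer cells of a type and less RNA per cell cannot be told apart in any value below.

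B lymphocytes are made in bone marrow from progenitors that pass through pro-B and pre-B stages. Ebf1 and Pax5 are transcription factors that set and keep B lineage identity. At the pre-B stage the heavy chain encoded by Ighm pairs with a surrogate light chain made of the Vpreb1 and Igll1 products, and this pre-B cell receptor signals through the Cd79a and Cd79b products. Vpreb3 encodes a partner of immunoglobulin chains in the endoplasmic reticulum, and Blnk encodes the adaptor that links the receptor to downstream enzymes. Some of these genes are also used outside the lineage. Ebf1 is expressed in marrow stromal and adipogenic cells, and Blnk in myeloid cells.

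Library totals ran from 4856833 to 8077362 counts, and 3 counts, taken as the lowest level a library can show, stood for 0.371 to 0.618 CPM, counts scaled to the library total. PCR copies are not independent molecules, so this floor covers counting error only. Osteoblast markers summed to 87685 to 105128 CPM in juvenile and 37321 to 54476 CPM in adult libraries, and endothelial markers to 442 to 714 and 557 to 670 CPM, so markers of both were detected. Adult replicate 2 stood apart from the other adult libraries in its neutrophil markers, at 94.0 CPM where the adult libraries reached 4715 CPM. Xist exceeded the Y-linked genes in 7 of 9 libraries, the exceptions being juvenile replicates 4 and 5.

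Promoter sequence was read for the B lineage genes. RefSeq windows of 300 bases (GRCm38.p6, from 250 bases before to 50 bases after the start) were found for 7 of the 9 genes. Those of Cd79a, Vpreb3, Vpreb1 and Igll1 are given because Cd79a and Vpreb3 had the smallest p-values of the age comparison and Vpreb1 and Igll1 form the surrogate light chain. Capitals mark the octamer ATTTGCAT, the E-box CAGGTG and the Ebf core CCCNNGGG, each searched on both strands.
Cd79a promoter (chr7:24897247-24897546, plus strand): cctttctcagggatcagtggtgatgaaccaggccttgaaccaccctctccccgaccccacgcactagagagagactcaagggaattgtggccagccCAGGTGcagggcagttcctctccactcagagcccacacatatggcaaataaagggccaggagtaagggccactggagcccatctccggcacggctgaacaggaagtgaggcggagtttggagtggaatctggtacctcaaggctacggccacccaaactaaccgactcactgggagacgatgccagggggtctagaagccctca
Vpreb3 promoter (chr10:75948050-75948349, plus strand): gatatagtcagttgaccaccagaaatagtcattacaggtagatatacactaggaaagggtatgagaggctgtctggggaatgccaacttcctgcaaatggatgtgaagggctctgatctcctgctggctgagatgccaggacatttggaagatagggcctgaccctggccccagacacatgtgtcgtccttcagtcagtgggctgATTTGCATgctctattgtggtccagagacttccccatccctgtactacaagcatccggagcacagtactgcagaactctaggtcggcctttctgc
Vpreb1 promoter (chr16:16869206-16869505, minus strand): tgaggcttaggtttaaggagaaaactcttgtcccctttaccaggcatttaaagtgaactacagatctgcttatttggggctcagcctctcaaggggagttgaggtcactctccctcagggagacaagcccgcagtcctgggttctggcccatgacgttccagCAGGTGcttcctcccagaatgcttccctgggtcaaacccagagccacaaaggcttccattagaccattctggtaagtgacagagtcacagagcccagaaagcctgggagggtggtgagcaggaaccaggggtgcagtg
Igll1 promoter (chr16:16863936-16864235, minus strand): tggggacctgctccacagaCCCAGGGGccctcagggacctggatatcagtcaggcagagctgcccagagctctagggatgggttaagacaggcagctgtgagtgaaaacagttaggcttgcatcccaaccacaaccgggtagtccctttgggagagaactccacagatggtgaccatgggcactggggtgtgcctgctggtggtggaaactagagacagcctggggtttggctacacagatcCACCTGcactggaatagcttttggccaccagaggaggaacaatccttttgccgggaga
The octamer was found in the Vpreb3 and Blnk windows, against 1.74% of all 32851 windows of this length. The E-box was found for Cd79a, Vpreb1, Igll1 and Blnk, against 20.2% of all windows. The Ebf core was found for Igll1, against 13.7% of all windows. The Ebf1 and Pax5 windows held none of these motifs. The capitals in these windows do not overlap. The windows are described by their letters only, and no binding was measured here.

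The B lineage genes were unevenly detected, and most of the signal lay in adult libraries 1, 3 and 4. With detection taken as at least 1 count, juvenile replicates 1, 2 and 3 each had 7 of the 9 genes, and juvenile replicates 4 and 5 had 4 each. Only in juvenile replicates 4 and 5 did Y-linked genes exceed Xist, so sex was not balanced between the ages. The part of sex in this difference was not tested. Adult replicates 1 and 3 had all 9, adult replicate 4 had 8, and adult replicate 2 had 6. At 3 counts or more, the genes detected numbered 7, 7, 6, 3 and 3 in juvenile replicates 1 to 5 and 9, 4, 9 and 7 in adult replicates 1 to 4. Ebf1, Blnk and Pax5 had at least 1 count in every library, Igll1 had none in any juvenile library, and Cd79b had counts in 1 juvenile library.

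Summed over the 8 genes other than Ebf1, the level was 15.2, 25.5, 17.3, 8.38 and 2.999 CPM in juvenile replicates 1 to 5. In adult replicates 1 to 4 it was 79.6, 12.4, 225 and 81.0 CPM. Adult replicates 1, 3 and 4 lay above all juvenile libraries, and adult replicate 2 lay within the juvenile range. Ebf1 took 60.5% to 91.9% of the counts on the 9 genes in juvenile libraries and 23.3% to 62.9% in adult libraries.

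**Figure D1:**
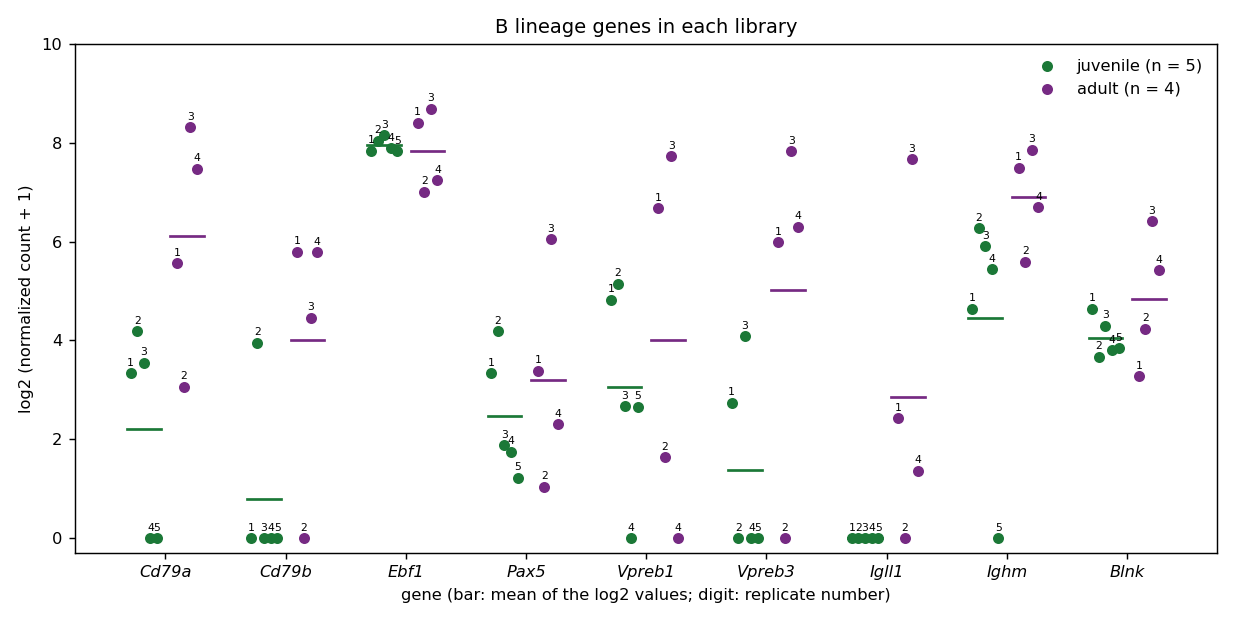
Normalized counts of the 9 B lineage genes in each library, on the log2 scale after adding 1. Points are libraries, digits are replicate numbers and bars are means of the log2 values; adult replicate 3 is the highest library for all genes but Cd79b, and adult replicate 2 lies within or below the juvenile range for each.

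Cd79a, a signalling subunit of the B cell receptor (chr7:24897381-24902197, plus strand, GRCm38), had 8, 19, 8, 0 and 0 counts in juvenile replicates 1 to 5. It had 64, 7, 409 and 225 counts in adult replicates 1 to 4. Adult replicates 1, 3 and 4 were above every juvenile library, but adult replicate 2 fell inside the juvenile range. Scaled for library size, its normalized count averaged 7.39 ± 7.40 in juvenile mice (SD, n = 5) and 137 ± 140.5 in adult mice (SD, n = 4). The fitted log2 fold change, juvenile over adult throughout, was -4.17 (SE 1.20, edgeR adjusted p = 0.0768), so Cd79a did not pass the threshold of 0.05. Without adult replicate 2 it passed, at -4.58 (edgeR adjusted p = 0.0336), and by DESeq2 it also passed with all libraries (adjusted p = 0.00400).

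Cd79b, the partner subunit (chr11:106311341-106314762, minus strand), had 16 counts in juvenile replicate 2 and 0 in the other juvenile libraries. Adult replicates 1 to 4 had 75, 0, 27 and 69 counts. The adult library without Cd79b was again replicate 2, and the ages overlapped. The log2 fold change was -3.36 (SE 1.59, edgeR adjusted p = 0.301).

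Vpreb3 (chr10:75943057-75949657, plus strand) had 5, 0, 12, 0 and 0 counts in juvenile and 86, 0, 292 and 99 counts in adult libraries. Its log2 fold change was -4.39 (SE 1.55), with an edgeR adjusted p of 0.147 and a DESeq2 adjusted p of 0.0448. Without adult replicate 3 it was -3.44 (edgeR adjusted p = 0.336). Its order of adult libraries, 3 above 4 above 1 above 2, was that of Cd79a.

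The surrogate light chain genes lie next to each other, with 4417 bases between Igll1 (chr16:16860671-16863985) and Vpreb1 (chr16:16868403-16870843), both on the minus strand. Vpreb1 had 24, 38, 4, 0 and 4 counts in juvenile and 139, 2, 272 and 0 counts in adult libraries. Juvenile replicates 1 and 2 therefore held more Vpreb1 than adult replicates 2 and 4. The log2 fold change was -2.42 (SE 1.46, edgeR adjusted p = 0.448), and -1.26 without adult replicate 3. Vpreb1 has a near-identical paralog, Vpreb2, which had 22 counts in adult replicate 3 and 0 elsewhere, and 9.01% of the exonic bases of Vpreb1 overlap Top3b on the opposite strand. With the strand setting not given in the sources used here, Vpreb1 counts are uncertain to that extent.

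Igll1 had 0 counts in the 5 juvenile libraries and 6, 0, 260 and 2 in adult replicates 1 to 4. Nearly all of its signal was thus from 1 adult mouse. Adult replicate 3, at 33.4 CPM, was at least 54.1-fold higher than the highest juvenile floor of 0.618 CPM (3 counts per library), adult replicate 1 at least 1.20-fold, and adult replicates 2 and 4 were under the floor. Igll1 did not pass the filter on low counts and was not tested.

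Ighm, the constant region of the mu heavy chain (chr12:113418558-113422730, minus strand), had 21, 84, 44, 36 and 0 counts in juvenile and 248, 45, 297 and 131 counts in adult libraries. The normalized count averaged 40.2 ± 29.6 at the younger age (SD, n = 5) and 140 ± 81.2 at the older (SD, n = 4). Adult replicate 2 was inside the juvenile range, and the other adult libraries were above it. The log2 fold change was -1.80 (SE 0.87, edgeR adjusted p = 0.314).

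Blnk (chr19:40928927-40994535, minus strand) was low but even in juvenile mice, with 10 to 21 counts, and had 12, 17, 108 and 53 counts in adult replicates 1 to 4. Its log2 fold change was -1.23 (SE 0.82, edgeR adjusted p = 0.506), and -0.51 without adult replicate 3. Adult replicate 1 ranked low for Blnk although it held high Cd79b, Ighm and Vpreb1.

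Both transcription factors gave patterns of their own. Ebf1 (chr11:44617317-45008091, plus strand) had 201, 290, 213, 200 and 170 counts in juvenile and 467, 122, 530 and 192 counts in adult libraries. The normalized count averaged 247 ± 25.2 at the younger age (SD, n = 5) and 257 ± 140 at the older (SD, n = 4). The log2 fold change was -0.06 (SE 0.35, edgeR adjusted p = 0.967). The adult libraries lay on both sides of the narrow juvenile range, with replicates 1 and 3 above it and replicates 2 and 4 below. Pax5 (chr4:44524757-44710487, minus strand) had 8, 19, 2, 2 and 1 counts in juvenile and 13, 1, 84 and 5 counts in adult libraries, did not pass the filter, and gave a log2 fold change of -1.60 (SE 1.34, edgeR adjusted p = 0.536) without a filter. Juvenile libraries thus held Ebf1 at a narrow range of levels, with Pax5 at 1 to 19 counts.

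Levels between genes were compared per kilobase of exon, scaled to the library sum (TPM-like). In juvenile mice Ebf1 was highest at 10.4 ± 1.33 (SD, n = 5), then Ighm at 8.75 ± 6.58, Vpreb1 at 4.89 ± 5.16, Vpreb3 at 2.10 ± 3.43 and Cd79a at 2.08 ± 2.10. Blnk, Cd79b and Pax5 followed at 1.09, 0.836 and 0.300, and Igll1 was at 0. In adult mice Vpreb3 was highest at 41.1 ± 42.3 (SD, n = 4), then Cd79a at 36.2 ± 36.6, Ighm at 28.8 ± 16.5 and Vpreb1 at 25.2 ± 31.8. Ebf1 stood at 10.2 ± 5.49, Igll1 at 9.12 ± 17.5, Cd79b at 8.87 ± 7.39, Blnk at 2.44 ± 2.12 and Pax5 at 0.859 ± 1.30. Within each age, neighbours in these orders differed by no more than the larger of their SDs. Ebf1 thus had the first place in juvenile and the fifth in adult mice, at nearly the same level.

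Of the 9 genes, 7 passed the filter on low counts, and edgeR called none of them at an adjusted p under 0.05. Over all genes tested, 3.88% were called in either direction and 1.89% as higher in adult mice. At an unadjusted edgeR p under 0.05, 2 of the 7 (Cd79a and Vpreb3) were higher in adult mice, against 8.76% of all genes. DESeq2 called both of these, and no other member, as higher in adult mice, against 4.97% of the genes it tested. Without adult replicate 2, edgeR called 1, Cd79a, against 2.46% of all genes. Not one of the 9 had every adult library above every juvenile library, while 4.08% of all genes did. The fitted log2 fold change was below 0 for all 7, with a median of -2.42 against -0.01 over all genes tested. Cd79a, Cd79b and Vpreb3 reached the filter mainly through adult libraries, so this shared direction is not independent of the filter. Ebf1 lay near 0.

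**Figure D2:**
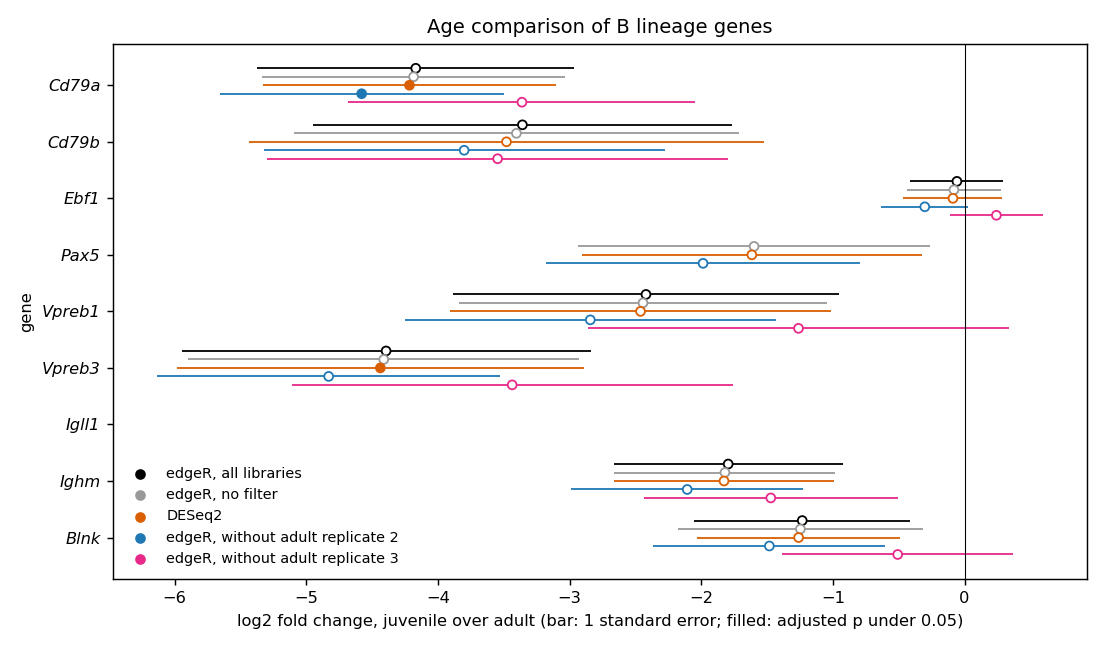
Log2 fold change, juvenile over adult, of the B lineage genes under 5 settings, with bars of 1 standard error and filled points at an adjusted p under 0.05. Cd79a passes by DESeq2 and without adult replicate 2, Vpreb3 passes by DESeq2, Ebf1 lies on both sides of 0, and Igll1 is left out because a fold change against libraries at 0 is not defined.

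The surrounding B lineage genes were read from a list of 63, of which 60 were in the tables, 55 had a count and 28 were tested. Myb, a transcription factor of progenitors of many blood lineages, was called higher in adult mice, and the other 27 tested genes were not called. Over all genes tested, 1.89% were called higher in adult mice. Myb had 0, 12, 1, 0 and 0 counts in juvenile and 122, 87, 169 and 273 counts in adult libraries. Every adult library was above every juvenile library, as for 4.08% of all genes tested. Myb reached the filter on low counts mainly through adult libraries, so its direction is not independent of the filter. Its log2 fold change was -5.58 (SE 1.13, edgeR adjusted p = 0.0173). The call was lost without juvenile replicate 3 (edgeR adjusted p = 0.0505) and when juvenile replicates 4 and 5 were left out together (edgeR adjusted p = 0.119). Of the 28, 21 had a log2 fold change below 0, against 50.5% of all genes tested, and the median was -0.90. As with Myb, a gene can reach the filter mainly through adult libraries, so this shared direction is not independent of the filter. At an unadjusted edgeR p under 0.05, 9 of the 28 were higher in adult mice, against 8.76% of all genes, and 2 higher in juvenile mice (Lef1 and Xbp1). DESeq2 gave an adjusted p to 42 of the listed genes. It called 6 higher in adult mice (Cd24a, Cxcr4, Ikzf1, Irf4, Myb and Prkcb), against 4.97% of all genes it tested. It called 1 higher in juvenile mice (Xbp1, a factor of secretory cells).

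Of the recombination genes, Rag1 and Dntt had their highest counts in adult replicate 3. Rag1, a subunit of the recombinase that joins immunoglobulin gene segments, had 12 counts there and 0 in the other libraries, and Rag2 was at 0 in all 9. Dntt, which adds bases at the joins, had 162 counts in adult replicate 3, 29 in adult replicate 4, and 0 to 15 elsewhere. Adult replicate 3 was thus the library with Igll1, Vpreb1, Vpreb3, Rag1, Dntt and Pax5 all at their highest counts. These genes were singled out after their values were seen, and Flt3, a cytokine receptor of early progenitors, had 50 to 106 counts in juvenile and 52 to 135 in adult libraries.

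Adult replicate 1 differed from it. It held Vpreb1 (139 counts), Ighm (248) and Cd79b (75), and also Il7r, the receptor for the growth factor interleukin 7, at 98 counts, but no Dntt or Rag1 counts. Il7r had 0, 28, 5, 8 and 0 counts in juvenile libraries and 98, 0, 66 and 4 in adult libraries, and was not tested.

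Several immunoglobulin genes had their highest counts in adult replicate 4. It had 1542 counts of Igha and 240 of Jchain, which encode the alpha heavy chain and the joining chain of secreted antibody, where the other 8 libraries had at most 10 and 2. It further had 838 counts of Igkc, the kappa light chain, and 198 of Derl3, an endoplasmic reticulum gene of secretory cells. Of the plasma cell list, Mzb1 was also highest there (201 counts), but the other 4 genes were not. Prdm1 had 144 counts in adult replicate 4, the lowest of the adult libraries, Tnfrsf17 had adult counts in replicate 1 alone (6), and the highest adult counts were in replicate 1 for Xbp1 (2270) and replicate 2 for Sdc1 (1955). The log2 fold change of Igkc was -4.51 (SE 1.24, edgeR adjusted p = 0.0650), and DESeq2 gave it no adjusted p. Without adult replicate 4 it was -1.42 (edgeR adjusted p = 0.569), whereas it passed without adult replicate 1 (adjusted p = 0.0417) or without adult replicate 2 (edgeR adjusted p = 0.0256). Ms4a1, which encodes the mature B cell antigen CD20, had 91 counts in juvenile replicate 2, 8 in adult replicate 4 and 0 elsewhere. Juvenile replicate 2 was also the sole juvenile library with Cd79b. Among the members, adult replicate 4 had Cd79a and Vpreb3 but 2 counts of Igll1 and 0 of Vpreb1.

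**Figure D3:**
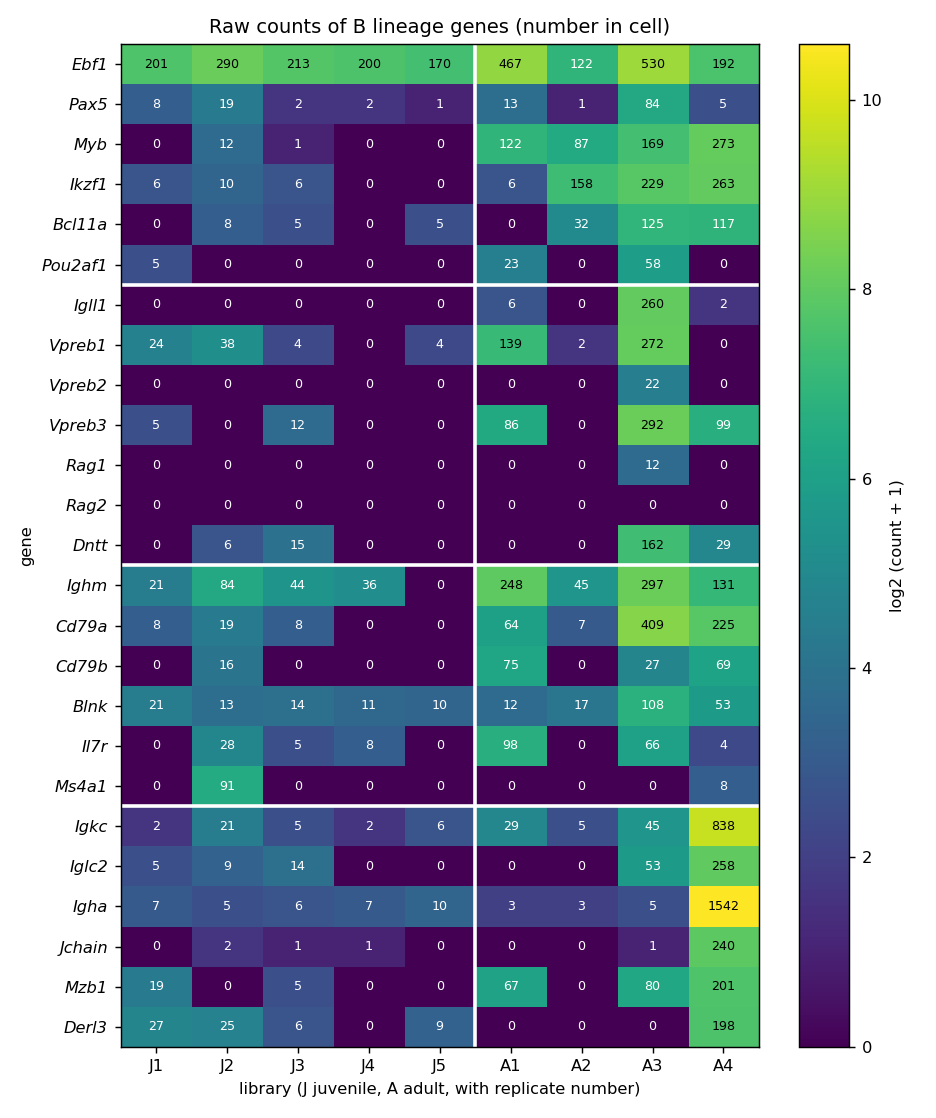
Raw counts of the 9 genes and of other B lineage genes in each library, printed in the cells and coloured on the log2 scale after adding 1. Igll1, Rag1 and Dntt are highest in adult replicate 3, Igha, Jchain and Derl3 in adult replicate 4, and Ms4a1 in juvenile replicate 2.

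A list of 11 genes held 8 stromal signals for B cell precursors and 3 genes of the Ebf family. Of the 11, 10 were in the tables and 5 were tested. Cxcl12, the chemokine that holds precursors in marrow, rose with age from 620 ± 218 (SD, n = 5) to 3739 ± 1801 (SD, n = 4) normalized counts, a log2 fold change of -2.59 (SE 0.37, edgeR adjusted p = 0.00283). Vcam1, an adhesion molecule for them, rose from 119 ± 107 (SD, n = 5) to 940 ± 251 (SD, n = 4), a log2 fold change of -2.97 (SE 0.54, edgeR adjusted p = 0.0117). Both calls were lost without juvenile replicates 4 and 5, with log2 fold changes of -2.33 for Cxcl12 (edgeR adjusted p = 0.0632) and -2.64 for Vcam1 (edgeR adjusted p = 0.0761). In both genes every adult library was above every juvenile library, as for 4.08% of all genes tested. Of all genes tested, 1.89% were called higher in adult mice. Kitl (-1.16, edgeR adjusted p = 0.173), Igf1 (-0.06, 0.988) and Ebf3, a paralog of Ebf1 (-1.16, 0.579), did not pass. Il7 had 62 counts in adult replicate 2, 99 in adult replicate 3 and at most 2 elsewhere, was not tested by edgeR, and was called higher in adult mice by DESeq2 (adjusted p = 0.0221). Adult replicate 2, low in most B lineage genes, was also the lowest adult library for Cxcl12, at 1151 counts against 5460 to 6947 in the others.

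Markers of other blood cells also differed between the ages. For comparison, edgeR called 3.88% of all genes tested in either direction and 1.89% as higher in adult mice. The 7 pan-leukocyte genes summed to 421 to 736 CPM in juvenile and 1145 to 1454 CPM in adult libraries, with 3 of 7 called higher in adult mice. Ptprc, the leukocyte antigen CD45, was among them, with a log2 fold change of -1.95 (SE 0.43, edgeR adjusted p = 0.0261), a call lost when any of juvenile replicates 2, 3 and 5 or adult replicates 2 and 3 was left out (edgeR adjusted p from 0.0536 to 0.0706) and when juvenile replicates 4 and 5 were left out together (edgeR adjusted p = 0.116). Neutrophil genes summed to 5.61 to 58.3 CPM and 94.0 to 4715 CPM, with 7 of 7 tested called higher in adult mice. Erythroid genes summed to 392 to 2470 and 4767 to 40723 CPM, also with 7 of 7 called. Macrophage genes summed to 274 to 379 and 659 to 1194 CPM (1 of 6 called, Vsig4 at 0 in all libraries), and megakaryocyte genes to 11.8 to 25.4 and 64.8 to 4664 CPM (1 of 3 called, Gp9 at 0 in all juvenile libraries). T cell genes summed to 3.94 to 13.0 and 13.8 to 31.8 CPM, with 0 of 2 called Cd8a at 0 in all juvenile libraries and Cd3e at 0 in all adult libraries. The 5 genes of plasmacytoid dendritic cells, which share some B lineage genes, summed to 86.6 to 149 and 14.7 to 32.6 CPM, but juvenile replicate 5 reached 102 CPM with 1 of the 5 detected, and the mean log2 CPM of the list overlapped between the ages (0.003 to 1.69 and -0.28 to 0.68). The list had 1 of 1 tested called higher in juvenile mice, Cox6a2 at 0 in all juvenile and Klk1 at 0 in all adult libraries. The B lineage markers themselves, the 9 genes with 6 others, summed to 38.2 to 94.3 and 34.2 to 330 CPM, with 0 of 9 tested called, Rag2 at 0 throughout and Igll1 and Rag1 at 0 in all juvenile libraries. The part of these other cells in the B lineage values was not tested.

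In leukocyte genes adult replicate 2 stood between the ages. Its pan-leukocyte sum of 1145 CPM was above every juvenile library but below the other adult libraries, at 1279 to 1454 CPM. The mean log2 CPM of the same 7 genes was 6.07 in adult replicate 2, 4.91 to 6.03 in juvenile libraries and 6.87 to 7.08 in the other adult libraries, although its normalized Ptprc count of 516.8 was the highest of the 9. Its macrophage sum of 659 CPM was the lowest of the adult libraries. On the log2 CPM scale, Cd79a minus the mean of the pan-leukocyte genes was -6.77 to -4.35 in juvenile and -5.51 to -1.41 in adult libraries, so these ranges met. For Ighm it was -6.77 to -2.09 and -3.11 to -1.87. For Ebf1 the order was opposite and the ranges did not meet, at -0.80 to 0.33 in juvenile and -2.26 to -1.04 in adult libraries. The share of all genes with such a gap was not computed. The subtracted pan-leukocyte mean was itself higher in adult libraries. A gene at nearly the same level in both ages, as Ebf1 was, therefore falls on this scale by construction. By median, Pax5 (-5.45 juvenile, -6.59 adult) and Blnk (-3.95, -4.24) were also lower in adult libraries, and Vpreb1 was level (-4.87 in both). The medians of Cd79b, Vpreb3 and Igll1 were higher in adult libraries. At 0 counts the log2 CPM is the same for every gene, so there the difference reflects the pan-leukocyte mean alone. This holds for some libraries of every member but Ebf1, Pax5 and Blnk, and Pax5 had as few as 1 count. Without the subtraction the log2 fold changes of Pax5 (-1.60, no filter) and Blnk (-1.23) were toward adult mice, and neither was called. Marrow stromal genes that include Cxcl12 summed to 284 to 457 and 438 to 1325 CPM (1 of 7 called higher in each age). Cxcl12, the 1 called higher in adult mice, made up 63.4 to 146 and 198 to 964 CPM of these sums. The mean log2 CPM of the stromal list overlapped between the ages (4.20 to 5.16 and 4.71 to 5.88). Mural cell genes summed to 347 to 498 and 371 to 645 CPM (0 of 5 called). Which of these cells held the Ebf1 RNA was not tested.

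**Figure D4:**
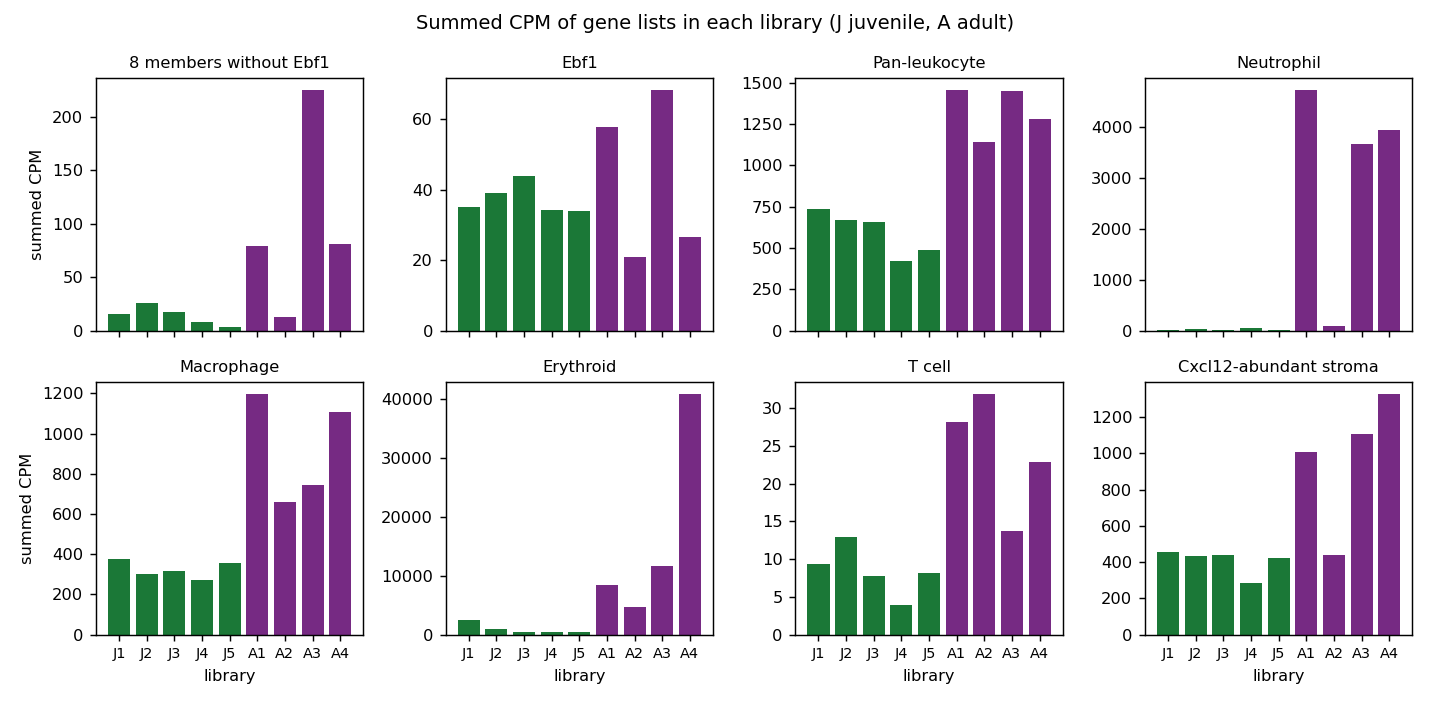
Summed CPM, on linear axes starting at 0, of the 8 genes other than Ebf1, of Ebf1 alone and of 6 cell type marker lists in each library. Adult replicate 2 is the lowest adult library for the B lineage genes, Ebf1 and the pan-leukocyte, neutrophil, macrophage, erythroid and stromal lists, and the highest for the T cell list.

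Genes with a similar pattern over the 9 libraries were ranked by Pearson r with the mean centred log2 CPM of the 7 tested members, as a description. The most similar were Cetn3 (r = 0.977), 1110032A03Rik (0.950), Cab39l (0.950), Capzb (0.945) and Gm20496 (0.945). The members themselves had r from 0.952 for Cd79a to 0.523 for Ebf1, each being part of the mean. After the mean of each age was subtracted, the highest were H2-D1 (r = 0.982), Sdcbp (0.980), Cetn3 (0.962), A430005L14Rik (0.958) and Cmtm7 (0.957). All points share library depth and the same dissected pieces, and none of these genes was in the B lineage lists.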

How the data were processed

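The authors deposited 1 table of raw counts per gene for each of 9 LMD libraries. Per the labels and the paper, RNA was amplified with SMART-Seq v4, sequenced as 75 bp paired-end reads, and mapped to mm10 with TopHat2 and Bowtie2. The submitters' processing notes name featureCounts, and versions, strand setting and annotation release are not given in the sources used here. Low-input amplification can miss rare transcripts. Symbols came from the GENCODE annotation of GRCm38, which matched 96.0% of identifiers and at least 99.3% of counts, and promoters from RefSeq. Ages were compared with edgeR 4.0.16 (R 4.3.3; filterByExpr, TMM, quasi-likelihood test, Benjamini-Hochberg adjustment over 13418 genes, threshold 0.05). Normalized counts are counts over relative effective library size, and log2 CPM used a prior count of 2. Marker, B lineage and stromal lists held fixed symbols, of which 4 had no match and were not analysed here. Named genes were the 9 members, Ms4a1, Igkc, Rag1, Il7r, Cxcl12 and Ptprc, called genes of the lists and the 5 most similar genes by each measure, and 1 further gene of that rule is not reported here. Other list genes were named after their values were seen. Members and lists were chosen with earlier results of these data known. Alternatives used DESeq2 1.42.0, limma 3.58.1, other scaling, filters, library subsets and a replicate block. Replicate numbers were checked for pairing and did not pair (correlations -0.03 to 0.03). No 2 libraries were copies in 36 pairs. The fits were tested on simulated counts.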

Additional observations from a re-analysis of the deposited data

Results flagged for a closer look

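In 3 of 17 groups examined, 1 library was set apart from the others of its age by Dixon's criterion. The chance number of 0.85 holds for independent groups of normally distributed values. These low counts come from the same libraries and include many zeros, so no excess over chance can be read from it. Cd79b in juvenile replicate 2 had a normalized count of 14.5, with the other juvenile libraries at 0, a case that meets the criterion at any count. Pax5 in adult replicate 3 had 65.2, with the other adult libraries between 1.05 and 9.43. Igll1 in adult replicate 3 had 202, with the others between 0 and 4.35.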

How the results depend on the processing

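The count of B lineage members called, 0 by edgeR, was 2 by DESeq2 and 0 to 1 when each library was left out in turn, the 1 being Cd79a without adult replicate 2. For the other B lineage genes the count of 1 was 7 by DESeq2, 2 by limma voom or without a filter on low counts, 3 with at least 10 counts in every library, and 0 to 6 with a library left out (0 without juvenile replicate 3, 6 without adult replicate 1, 5 without adult replicate 2). The replicate block, which left 8 libraries, called 0 of the other B lineage genes, 0 stromal genes and 81 genes in all, and the 7 libraries in which Xist exceeded the Y-linked genes gave 0, 0 and 73; the cause was not tested, but both had fewer samples. With the block, Cxcl12 was at -2.35 (edgeR adjusted p = 0.0574), Vcam1 at -3.54 (0.0686) and Ptprc at -2.14 (0.0765). Over all genes, 520 were called, 1492 by DESeq2 and 262 to 651 with a library left out, the lowest without juvenile replicate 5. Ebf1 changed sign by limma voom (0.20), with the block (0.14) and in the 7 libraries (0.0075). It also did so without adult replicate 1 (0.09) and without adult replicate 3 (0.24). All these values lay within 1 SE of 0 (range with a library left out -0.30 to 0.24). No other member changed sign in the settings that tested it (4 for Pax5). Igll1, at 0 in all juvenile libraries, had 1 setting only, so its sign could not change. Cd79a lay between -4.58 and -3.36 with adjusted p from 0.00400 (DESeq2) to 0.425 (edgeR with the block). In the 7 libraries in which Xist exceeded the Y-linked genes, Cd79a was at -3.46 (edgeR adjusted p = 0.253) and Cd79b at -2.68 (0.699). At this depth, members at 0 counts are limited to under 0.371 to 0.618 CPM.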
